A study of Mus musculus with 12 samples.

Results

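Open chromatin at the ends of long noncoding RNA (lncRNA) genes was followed in germinal center B cells of the mouse, with and without Pbrm1. The peaks described are the autosomal ones whose midpoint lay within 1 kb of either end of a lncRNA gene of the RefSeq table and more than 3 kb from every end of a protein-coding gene. This rule, which uses position and no measured value, took 2270 of 68689 peaks (67159 of them autosomal), at 1717 lncRNA genes. They are compared with 15681 autosomal peaks within 1 kb of a coding gene end and with 39548 distal peaks, which lie over 3 kb from any end of a coding or lncRNA gene.

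Accessibility was measured by Omni-ATAC-seq, a transposase assay that reads open DNA, in germinal center B cells sorted from the spleens of C57BL/6 mice aged 8 to 10 weeks. The mice were Pbrm1+/+ (WT) or Pbrm1-/- (HOMO), and 2 sorted populations labelled CB and CC gave 3 libraries in each of 4 groups. The labels do not spell out CB and CC. They also do not say whether the libraries came from separate mice, so the p-values measure the spread between libraries. The headers of the count table carry the prefix Pbrm1AID, whose meaning the labels leave unexplained, and the construction of the allele is not stated in them. Read totals in peaks ran from 6431354 to 45590454 per library. All 13 germinal center B cell marker genes had a peak at a gene end, against 2 of 9 T cell, 3 of 7 myeloid, 2 of 6 erythroid and 1 of 4 natural killer cell markers, and all 4 plasma cell markers. In CB the summed level of the erythroid markers was 11.5 to 16.3 CPM, the count scaled by library depth, in WT and 8.84 to 10.2 in HOMO, and in CC 10.6 to 12 and 7.82 to 8.72. That of the plasma cell markers was 176 to 186 in WT CB, 153 to 165 in HOMO CB, 151 to 159 in WT CC and 144 to 146 in HOMO CC, lower in CC than in CB in both genotypes. The T cell markers had 28 to 30.9 in WT CB and 24.2 to 27.8 in HOMO CB, and the myeloid markers 51.3 to 60.1 and 63.1 to 66.4. The ranges of the T cell and myeloid markers overlapped between genotypes in CC. Their part in the results below was not tested. In such bulk samples fewer cells of a type and less open DNA per cell cannot be told apart.

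Long noncoding RNA genes are transcribed by RNA polymerase II like coding genes, and many start from open, nucleosome-poor promoters. Some serve as hosts that release small nucleolar RNAs or microRNAs from their transcripts, some act in the nucleus on neighbouring or imprinted genes, and the start sites of others lie at enhancers, so that an open lncRNA end need not mark a functional transcript. Pbrm1 encodes a bromodomain subunit found in the PBAF form of the SWI/SNF chromatin remodelers, which slide and evict nucleosomes.

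The promoter windows of 6 lncRNA genes are printed because the peaks that overlap these windows are among the called ones of smallest p. They include starts rich and poor in CpG. Counts between these also occur: 299 described peaks near a start have a window with 6 to 10 CpG and 170 one with 11 to 20. Each runs from 250 bases before to 50 bases after the annotated start on the strand of the gene, from RefSeq on GRCm38.p6. Capitals mark matches, on either strand, to 7 short motifs: the TATA box (TATAAA), the GC box (GGGCGG), the CCAAT box (CCAAT), the Ets core (GGAAGT), the CRE core (TGACG), the AP-1 site (TGANTCA) and the octamer core (TTTGCAT). Matches can overlap, as the TATA boxes of Gm40785 do. A match is a string of letters and not a shown binding site.
2310034G01Rik, chr19:46348939-46349238, minus strand: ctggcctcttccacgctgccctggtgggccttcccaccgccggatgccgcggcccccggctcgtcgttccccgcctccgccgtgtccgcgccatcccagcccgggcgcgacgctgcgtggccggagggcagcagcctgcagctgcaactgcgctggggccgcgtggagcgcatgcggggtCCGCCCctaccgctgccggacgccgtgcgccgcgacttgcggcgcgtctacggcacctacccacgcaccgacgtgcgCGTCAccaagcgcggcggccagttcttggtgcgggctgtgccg
2900005J15Rik, chr5:25100725-25101024, plus strand: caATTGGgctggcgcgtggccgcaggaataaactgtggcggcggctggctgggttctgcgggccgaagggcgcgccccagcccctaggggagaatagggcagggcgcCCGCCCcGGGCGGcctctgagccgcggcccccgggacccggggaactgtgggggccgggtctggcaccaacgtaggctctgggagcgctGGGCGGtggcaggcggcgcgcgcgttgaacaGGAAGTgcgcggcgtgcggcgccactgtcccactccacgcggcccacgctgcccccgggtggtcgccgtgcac
Gm36354, chr6:88939671-88939970, plus strand: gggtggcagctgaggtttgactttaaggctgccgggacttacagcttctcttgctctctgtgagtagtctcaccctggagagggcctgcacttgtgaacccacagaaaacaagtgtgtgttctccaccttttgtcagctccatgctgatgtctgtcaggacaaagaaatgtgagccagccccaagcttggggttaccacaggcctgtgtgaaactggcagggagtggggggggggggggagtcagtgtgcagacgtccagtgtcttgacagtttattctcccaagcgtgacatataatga
Gm19951, chr12:99642846-99643145, plus strand: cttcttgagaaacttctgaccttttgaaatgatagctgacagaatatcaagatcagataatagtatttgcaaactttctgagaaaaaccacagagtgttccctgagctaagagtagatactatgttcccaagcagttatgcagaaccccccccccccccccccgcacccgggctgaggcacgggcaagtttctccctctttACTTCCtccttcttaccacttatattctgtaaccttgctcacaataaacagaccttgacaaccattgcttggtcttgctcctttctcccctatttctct
Gm40785, chr10:121359985-121360284, minus strand: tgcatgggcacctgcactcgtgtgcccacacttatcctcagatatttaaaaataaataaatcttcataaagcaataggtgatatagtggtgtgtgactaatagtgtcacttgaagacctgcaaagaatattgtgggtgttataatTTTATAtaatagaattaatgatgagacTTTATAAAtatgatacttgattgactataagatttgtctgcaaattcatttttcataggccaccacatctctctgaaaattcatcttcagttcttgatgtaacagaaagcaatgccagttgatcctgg
Gm37120, chr1:132102347-132102646, plus strand: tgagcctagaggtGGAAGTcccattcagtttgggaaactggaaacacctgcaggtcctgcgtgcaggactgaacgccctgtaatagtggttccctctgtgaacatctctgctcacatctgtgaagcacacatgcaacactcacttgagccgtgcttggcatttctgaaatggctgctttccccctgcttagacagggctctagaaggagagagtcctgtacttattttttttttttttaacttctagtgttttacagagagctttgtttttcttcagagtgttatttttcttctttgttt

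The windows of 2310034G01Rik and 2900005J15Rik, whose peaks were lower in HOMO, hold 46 and 37 CpG. The GC box occurs 1 time in the first and 3 times in the second, and is found in 35.7% of all 32851 promoter windows of the table. The windows of Gm36354, whose peak was also called lower in HOMO CB, and of Gm19951 and Gm37120 hold 3 CpG each. That of Gm40785 holds 1, and none of these 4 has a GC box. The window of Gm40720, which is not printed, holds 2 CpG, and its peak was called lower in HOMO in both populations. The median is 6 CpG over the windows behind the 1194 described peaks near a start, 4 over all 11588 lncRNA windows and 13 over 21263 coding windows. Of the windows with a described start peak, 28.3% hold a GC box, against 16.3% of lncRNA and 46.2% of coding windows. The Ets core is in 28.1% of them and in 23.8% of all windows. The TATA box is in 13.1% and 13.6%, the CCAAT box in 31.8% and 37.4%, the CRE core in 20.5% and 20.8%, the AP-1 site in 9.72% and 7.81%, and the octamer core in 6.53% and 4.63%, respectively.

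Of the 2270 peaks, 1183 lay at 5′ ends, 565 at 3′ ends and 522 at ends whose strand the table used here does not give. A total of 1259 genes had 1 peak, 376 had 2 and 82 had 3 or more. Provisional names prevailed: 1744 peaks belonged to genes named Gm with a number and 362 to genes ending in Rik, whereas 34 belonged to named antisense genes and 71 to other named genes. The span of a coding gene enclosed 715 of the peaks. The median distance to the lncRNA end was 397 bp and to the nearest coding gene end 18968 bp.

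Peaks at lncRNA ends were intermediate in accessibility. The median of the average level, in log2 CPM, was 3.03 (range -0.30 to 6.99), against 4.48 at coding gene ends and 2.45 in distal peaks. Peaks at 5′ ends had a median of 3.34 and those at 3′ ends 2.63. The set took between 3.06% and 3.16% of the counts in each of the 12 libraries, a narrower range than the 41.9% to 46.8% of coding ends and the 35.3% to 40.0% of distal peaks. Around the 1 kb limit, the 147 peaks at 900 to 1000 bp from a lncRNA end had a median level of 2.77 and the 161 peaks just outside, at 1000 to 1100 bp, 2.93. Around the 3 kb limit, the 66 peaks just inside had a median of 3.51 and the 68 just outside 3.77.

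The 6 most open peaks were near the starts of 2700012I20Rik, Mir22hg, 1700096K18Rik, D130051D11Rik, Chaserr and Gm35417. Chaserr is a lncRNA gene next to Chd2, whose expression it restrains. At the Chaserr peak (chr7:73558441-73558941) the CPM was 87.2, 95.6 and 98.6 in WT CB and 112, 96.8 and 94.5 in HOMO CB. It was 89.4, 88.9 and 98.3 in WT CC and 87.8, 99.3 and 96.0 in HOMO CC. The groups overlapped throughout, and the log2 fold change of HOMO against WT was 0.10 ± 0.09 (SE) in CB and 0.04 ± 0.09 in CC. At the most open peak, 2700012I20Rik inside the span of Sin3a (chr9:57075782-57076282), CPM averaged 118 ± 18.6 (SD, n = 3) in WT CB and 141 ± 4.92 in HOMO CB. None of the 6 was called in any comparison.

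The first comparison asked what the absence of Pbrm1 did in the CB population. Of the 2270 peaks at lncRNA ends, 82 were called lower and 12 higher in HOMO, where called means an adjusted p under 0.05 in edgeR's quasi-likelihood test with Benjamini-Hochberg adjustment over all 68689 peaks. That is 4.14% of the set, near the background of 4.63% of all peaks (3.85% lower, 0.779% higher). Of the calls 87.2% were lower, against 83.2% over all peaks. The median log2 fold change was -0.03, against 0.01 over all peaks, -0.11 at coding ends (9.53% called) and 0.07 in distal peaks (2.82% called). The groups of WT and HOMO CB libraries did not overlap at 540 of the 2270 peaks, among them all 94 called. This is 23.8% of the set, and the share over all peaks was 23.5%.

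By position, 48 of the 1183 peaks at 5′ ends were lower in HOMO CB and 7 higher (4.65% called), against 15 and 3 of the 565 at 3′ ends (3.19%) and 19 and 2 of the 522 at ends of unknown strand (4.02%). In CC, 27 were lower and 5 higher at 5′ ends (2.7% called), and 5 lower and 7 higher at 3′ ends (2.12%). Of all peaks 4.63% were called in CB and 2.75% in CC. Without the library HOMO CC 2, no lncRNA-end peak was called in CC. Peaks inside the span of a coding gene were called in CB at 4.06% and those outside at 4.18%. These shares were not tested against each other.

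Since the 3 classes differ in level, they were also compared within bins of average log2 CPM. Between 3 and 4, the median log2 fold change in CB was -0.04 over 485 peaks at lncRNA ends, -0.29 over 2753 at coding ends and 0.04 over 7531 distal peaks. The shares called were 6.39%, 19.5% and 3.43%. In CC the medians in this bin were 0.00, -0.25 and 0.07. The lncRNA ends lay between the other classes in each bin in both populations, other than the bin of 6 to 7 in CB, where 29 lncRNA-end peaks had a median of 0.07 and distal peaks 0.07.

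**Figure D1:**
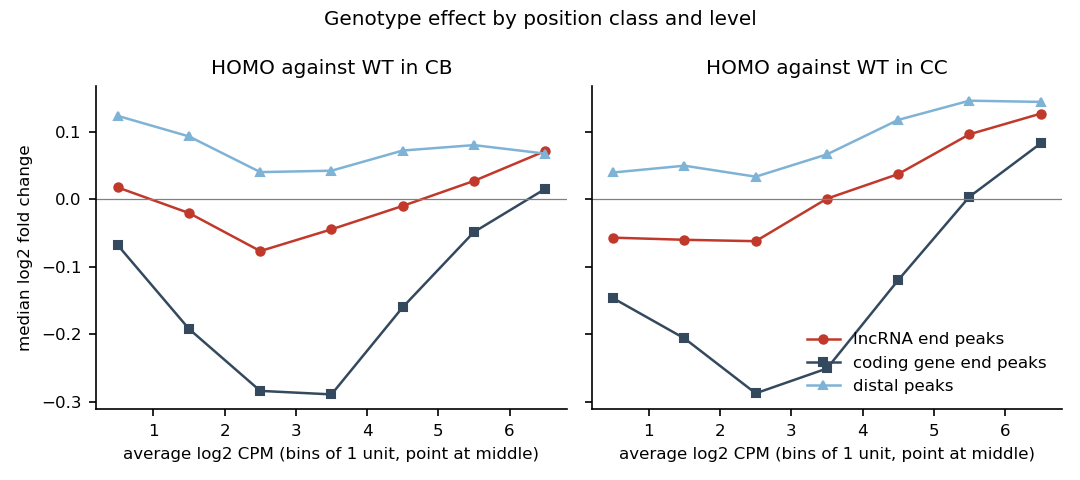
Median log2 fold change of HOMO against WT (vertical axis) by bins of 1 unit of average log2 CPM (horizontal axis), for lncRNA-end, coding gene-end and distal peaks, in CB (left) and CC (right). The lncRNA-end line runs between the coding line, lowest at -0.29 in both panels, and the distal line, which stays above 0, other than in the last bin in CB, where it lies at 0.07 like the distal line.

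The called lower peak of smallest p in CB was at the start of 2310034G01Rik (chr19:46348676-46349176), a short lncRNA gene of 788 bp with the CpG-rich window printed above. Its CPM was 18.5, 19.1 and 21.6 in WT CB and 8.25, 8.79 and 9.08 in HOMO CB. It was 18.5, 19 and 23.4 in WT CC and 12.9, 14.3 and 12.9 in HOMO CC. The HOMO libraries were below every WT library in both populations, and more so in CB. By edgeR's quasi-likelihood test the log2 fold change was -1.17 ± 0.14 (SE, adjusted p = 0.000406) in CB and -0.61 ± 0.14 (adjusted p = 0.0214) in CC. The CB call held without any 1 library, with an adjusted p of at most 0.00968. The CC call did not hold without WT CC 1 (0.0518), WT CC 3 (0.0973), HOMO CC 2 (0.107) or HOMO CC 3 (0.107). The difference of the 2 effects, 0.57 ± 0.19, had an edgeR adjusted p of 1.00.

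The other called lower peaks that the naming rule took in CB were at LOC102637792, Gm31992, Gm36354, 2900005J15Rik, 1700086O06Rik, Gm33118 and Carlr, and with 2310034G01Rik they ranged from -1.17 to -0.72. The peak at the start of 2900005J15Rik (chr5:25100624-25101124) lies inside the span of Prkag2, which encodes a regulatory subunit of the AMP-activated kinase. Its CPM was 7.51, 5.96 and 7.56 in WT CB and 4.32, 2.79 and 3.12 in HOMO CB, without overlap. In CC it was 8.38, 9.57 and 9.68 in WT and 4.44, 4.32 and 5.10 in HOMO, again without overlap. The peak fell by 1.13 ± 0.20 on the log2 scale in CB (edgeR adjusted p = 0.0040) and by 0.99 ± 0.19 in CC (0.0116). Without HOMO CB 2 the first adjusted p was 0.0572, and without HOMO CC 2 the second was 0.111.

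At Gm36354 (chr6:88939173-88939673) the CPM was 11.1, 9.96 and 8.29 in WT CB and 4.72, 4.56 and 5.38 in HOMO CB. In CC the values lay closer, 11.3, 10.6 and 10.2 in WT and 9.76, 8.34 and 7.95 in HOMO, and still did not overlap. The log2 fold change was -0.98 ± 0.17 in CB (edgeR adjusted p = 0.00379) and -0.32 ± 0.17 in CC (0.339), and the difference between them, 0.67 ± 0.24, was not called (adjusted p = 1.00). Carlr is a lncRNA gene described in inflammatory signalling of macrophages. The called peak, 891 bp from its 3′ end (chr2:18799886-18800386), had 20.4, 18.1 and 20.1 CPM in WT CB and 11.5, 12.9 and 11.1 in HOMO CB. It fell by 0.72 ± 0.14 (edgeR adjusted p = 0.00572), and by 0.43 ± 0.14 in CC, where the adjusted p was 0.0959. A nearer peak, 262 bp from that end (chr2:18798733-18799233), was not called, at -0.25 ± 0.19 in CB and -0.14 ± 0.19 in CC (edgeR adjusted p = 0.514 and 0.776).

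At Gm31992 (chr10:40163204-40163704) the WT CB libraries had 11.3, 9.85 and 9.35 CPM and the HOMO CB libraries 4.19, 5.26 and 4.37. The peak fell by 1.12 ± 0.18 in CB (edgeR adjusted p = 0.00246, at most 0.0279 without any 1 library). Gm33118 ends inside Kdm2b, which encodes a CpG-binding histone demethylase. Both peaks near that end were called lower in CB, the first (chr5:122951997-122952497) at 24.5, 22.8 and 24.4 CPM in WT against 16.8, 13.3 and 12 in HOMO, the second (chr5:122951482-122951982) at 40.4, 42.1 and 51.2 against 28.6, 31.9 and 33.3. Their log2 fold changes were -0.81 ± 0.15 and -0.51 ± 0.11 (edgeR adjusted p = 0.0056 and 0.0141). Without HOMO CB 2 the adjusted p-values were 0.0567 and 0.082, and the second was 0.0659 without WT CB 3. LOC102637792 (chr18:56431705-56432205) and 1700086O06Rik (chr18:38239108-38239608) fell by 0.83 ± 0.12 and 0.96 ± 0.17 in CB and by 0.65 ± 0.13 and 0.92 ± 0.18 in CC, all 4 called. In CC the adjusted p of LOC102637792 was 0.0992 without HOMO CC 2, 0.0780 without HOMO CC 3 and 0.0545 without WT CC 1. That of 1700086O06Rik was 0.107 without HOMO CC 2 and 0.0511 without WT CC 1.

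Called higher peaks were fewer. The 8 named in CB were at Gm41130, Gm51451, Gm38537, Gm19951, Gm35225, Gm41538, Gm52134 and Gm31814, with log2 fold changes of 0.44 to 1.76. The largest, at the 3′ end of Gm41130 inside Arhgap22 (chr14:33229751-33230251), had 3.51, 1.6 and 4.11 CPM in WT CB and 9.43, 11.7 and 12 in HOMO CB. It rose by 1.76 ± 0.23 in CB (edgeR adjusted p = 0.000781) and, from 3.10, 4.03 and 4.31 to 7.84, 7.82 and 9.01, by 1.10 ± 0.23 in CC (0.0157). This peak lies 2.21 Mb from the peak of Pbrm1, and the one at Gm52134, which rose by 1.63 ± 0.41 in CB (0.0262), lies 1.33 Mb from it. The Gm41130 call in CC was lost without HOMO CC 2 (0.0995), HOMO CC 3 (0.0847), WT CC 1 (0.0777) or WT CC 2 (0.0505). That of Gm52134 in CB was lost without any CB library other than HOMO CB 1 (0.0633 to 0.173). Whether sequence carried along with the targeted allele differs between the genotypes there was not tested. Of 19 peaks of the set within 6 Mb of Pbrm1, 2 were higher and 1 lower in CB. The shares called were 15.8% in CB and 10.5% in CC, against 4.63% and 2.75% of all peaks. For CC against CB they were 15.8% in WT and 26.3% in HOMO, against 5.43% and 7.22%. Without these 19, 10 higher and 81 lower calls remained in CB.

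The peak at the 3′ end of Gm31814 (chr16:24185718-24186218) has its midpoint 197102 bp from an end of Bcl6, the gene of the transcription repressor that defines germinal center B cells. It had 17.9, 20.3 and 11.4 CPM in WT CB and 27.2, 29.1 and 23.2 in HOMO CB. In CC it had 15.2, 17.2 and 13.3 in WT and 29.7, 28.8 and 21.9 in HOMO, and the genotypes did not overlap in either population. The rise was 0.71 ± 0.18 in CB and 0.81 ± 0.18 in CC (edgeR adjusted p = 0.0275 and 0.0212). Its CB call was lost without HOMO CB 2 (0.165), WT CB 3 (0.0993) or WT CB 1 (0.0707), and its CC call without HOMO CC 2 (0.160), WT CC 1 (0.0790) or WT CC 3 (0.0733). The most open peak at an end of Bcl6 itself had log2 fold changes of 0.24 and 0.08, with edgeR adjusted p-values of 0.433 and 0.856.

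At the peak 492 bp from the start of Gm19951 (chr12:99642354-99642854), whose window is printed above, the CPM was 10.7, 8.70 and 10.3 in WT CB and 14, 15.3 and 15.6 in HOMO CB. It was 12.7, 12.9 and 13.3 in WT CC and 19.5, 25.3 and 22.9 in HOMO CC. All HOMO libraries exceeded all WT libraries of their population. The log2 fold changes were 0.59 ± 0.14 (edgeR adjusted p = 0.0190) and 0.81 ± 0.13 (0.00584). The CC call was lost without HOMO CC 2 (0.0833), and the CB call without WT CB 1 (0.0582), WT CB 2 (0.0585), HOMO CB 2 (0.106) or HOMO CB 3 (0.0845).

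**Figure D2:**
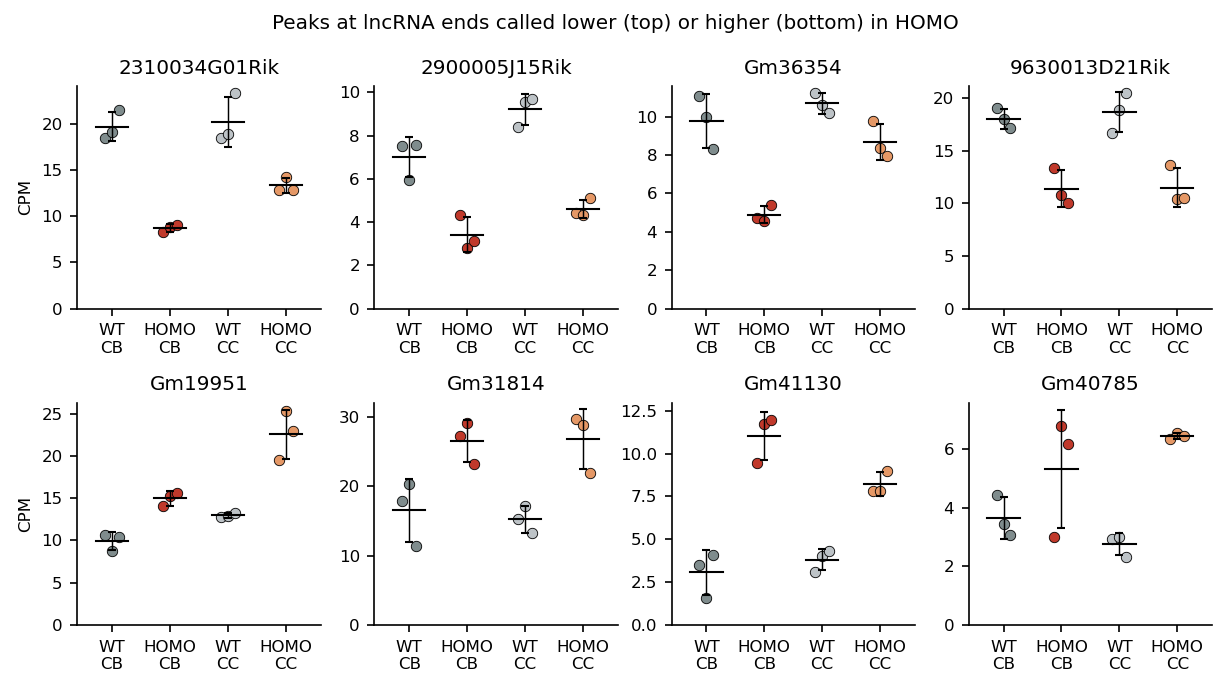
CPM of 8 peaks at lncRNA ends in each library (points, 3 per group), with group means (horizontal lines) and SD (bars). Top, peaks called lower in HOMO in CB or CC: at 2310034G01Rik, WT CB lies at 18.5 to 21.6 and HOMO CB at 8.25 to 9.08. Bottom, peaks called higher: at Gm41130, HOMO CB lies at 9.43 to 12 above WT CB at 1.6 to 4.11.

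The second comparison made the same contrast in CC. Here 44 peaks were lower and 15 higher in HOMO, 2.6% of the set against 2.75% of all peaks (2.17% lower, 0.578% higher). The median log2 fold change was 0.01, against 0.02 over all peaks, -0.07 at coding ends and 0.07 in distal peaks. Of the 82 peaks lower in CB, 22 were also lower in CC, which is 26.8% of the CB and 50% of the CC list. Over all peaks the corresponding shares were 41.1% and 72.8%. Of the higher peaks, 5 were shared between the 12 in CB and the 15 in CC. These are 41.7% of the CB and 33.3% of the CC list, against 32.3% and 43.6% over all peaks. No peak was called in opposite directions, and across the 2270 peaks the 2 sets of fold changes correlated at r = 0.73 (0.72 over all 68689 peaks), a description across peaks that share libraries within each population and are not replicates.

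Besides 1700086O06Rik, LOC102637792 and 2900005J15Rik, the lower peaks named in CC were at Gm40720, 9630013D21Rik, Gm51553, Gm26682 and Gm15743, and the 8 ranged from -1.24 to -0.61. The peak near the start of 9630013D21Rik (chr4:109656947-109657447) has its midpoint 3679 bp from the nearest end of Cdkn2c, a cyclin-dependent kinase inhibitor gene. It had 16.7, 18.9 and 20.5 CPM in WT CC and 13.6, 10.4 and 10.5 in HOMO CC. In CB it had 19, 18 and 17.1 in WT and 13.4, 10.8 and 10.0 in HOMO. The most open peak at an end of Cdkn2c had log2 fold changes of 0.09 in CC and -0.04 in CB (edgeR adjusted p = 0.649 and 0.846). The 9630013D21Rik peak fell by 0.74 ± 0.15 in CC and by 0.70 ± 0.15 in CB (edgeR adjusted p = 0.0139 and 0.0116). Without HOMO CC 2 or HOMO CC 3 the CC adjusted p was 0.134 or 0.0835, and in CB it was 0.0698 without WT CB 1, 0.0915 without HOMO CB 2 and 0.0837 without HOMO CB 3.

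Gm40720 (chr10:82178066-82178566) had 25.7, 23.7 and 22.5 CPM in WT CC and 15.4, 15.2 and 15 in HOMO CC, a fall of 0.65 ± 0.13 (edgeR adjusted p = 0.0122). This call was lost without HOMO CC 2 (0.101), HOMO CC 3 (0.0638) or WT CC 1 (0.0629). The higher peaks named in CC were at Gm19951, Gm40785, Gm12679, Gm41130, Gm31814, Galnt6os, Gm52811 and Gm41538. Gm40785, whose window holds 3 TATA box matches, had 2.95, 3.01 and 2.32 CPM in WT CC and 6.36, 6.55 and 6.45 in HOMO CC (chr10:121360225-121360725). It rose by 1.25 ± 0.25 in CC (edgeR adjusted p = 0.0137), a call lost without HOMO CC 2 (0.101), HOMO CC 3 (0.0595), WT CC 1 (0.0511) or WT CC 3 (0.0501). In CB the values were 4.44, 3.44 and 3.08 in WT and 3.01, 6.78 and 6.17 in HOMO, which overlap (0.62 ± 0.24, adjusted p = 0.151).

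The CC calls rested on few libraries. Without HOMO CC 2, edgeR called none of the 2270 peaks in CC, and over all 68689 peaks 17 were called and 7764 had an unadjusted p under 0.05. The 16 named peaks had edgeR adjusted p-values of 0.0811 to 0.240. The count was 4 without WT CC 1, 5 without HOMO CC 3, 20 without WT CC 2 and 25 without WT CC 3, 33 without HOMO CB 2, and 113 without HOMO CC 1, the shallowest library. In CB the count fell to 10 without HOMO CB 2, 19 without WT CB 1 and 23 without HOMO CB 3, while over all peaks it fell from 3178 to 341, 693 and 804. In CB, 7 of the 16 named peaks kept their call without each library in turn. No named peak changed direction in these fits.

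The difference between the genotype effects in CC and CB was called at 0 of 2270 peaks by edgeR, and by limma voom and DESeq2. It was 0 over all peaks too (background 0%), and 32 of the 2270 and 810 of 68689 had an unadjusted p under 0.05. The peaks called in 1 population only are therefore not shown to differ between populations.

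**Figure D3:**
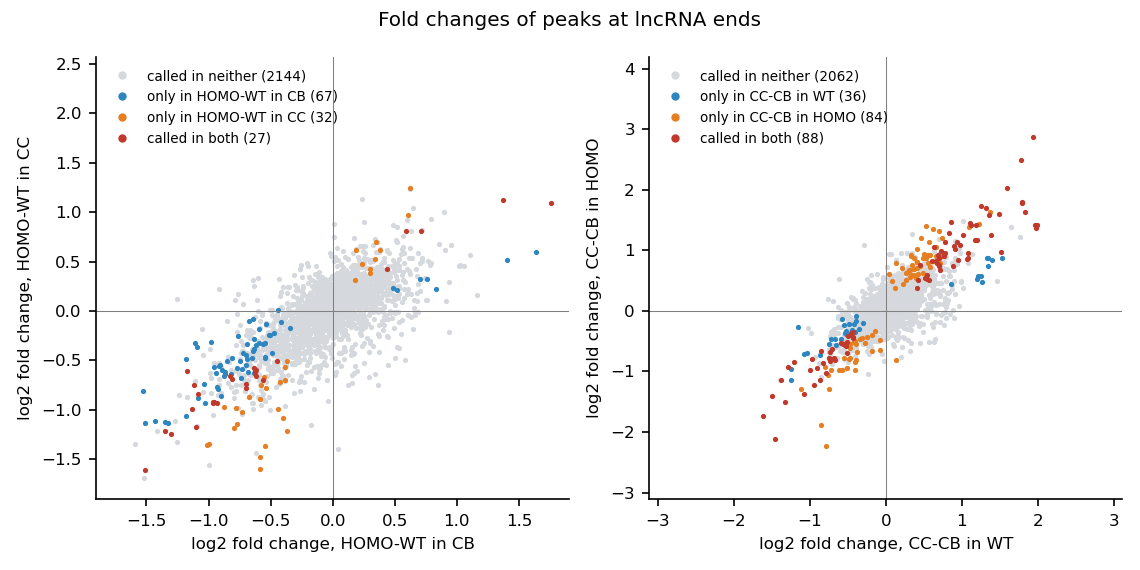
Log2 fold changes of the 2270 lncRNA-end peaks, each a point: HOMO against WT in CB (horizontal) and CC (vertical) on the left, CC against CB in WT (horizontal) and HOMO (vertical) on the right. Colours show in which comparison a peak was called, and the 27 and 88 peaks called in both (red) have the same sign on both axes.

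Among peaks near an annotated start, the genotype calls varied with the CpG content of the promoter window. A window was available with a start within 1 kb for 1194 peaks at 945 lncRNA genes. Of these peaks 660 overlap the window and 534 lie beside it. Some overlap only at an edge, as at Gm36354 and Gm19951. The CpG count is therefore of the window and not of the peak itself. In CB, 1.02% of 197 peaks with 0 to 2 CpG were lower in HOMO and 1.52% higher. With over 20 CpG, 6.42% of 187 were lower and none was higher, and in CC 5.35% were lower and none higher. The level also rose along the bins, from a median log2 CPM of 2.53 to 4.52. Within peaks of log2 CPM 3 to 5 the median fold change in CB still ran from 0.07 (75 peaks, 0 to 2 CpG) to -0.19 (85 peaks, over 20 CpG), and in CC from 0.13 to -0.16. The 660 peaks that overlap their window are a subset taken after the data were seen. Of these, 1.05% of 95 with 0 to 2 CpG and 6.5% of 123 with over 20 were lower in HOMO CB, with medians of -0.00 and -0.06. In CC the shares were 1.05% and 4.88%, with medians of 0.07 and 0.02. At 11 to 20 CpG, 4.63% of 108 were lower in CB and 0 in CC. Coding starts of the same level (log2 CPM 3 to 5) and over 20 CpG had a median of -0.24 in CB over 2710 peaks. Those with 0 to 2 CpG had -0.16 over 64, those with 3 to 5 CpG -0.04 over 155, and those with 6 to 10 CpG -0.21 over 398.

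**Figure D4:**
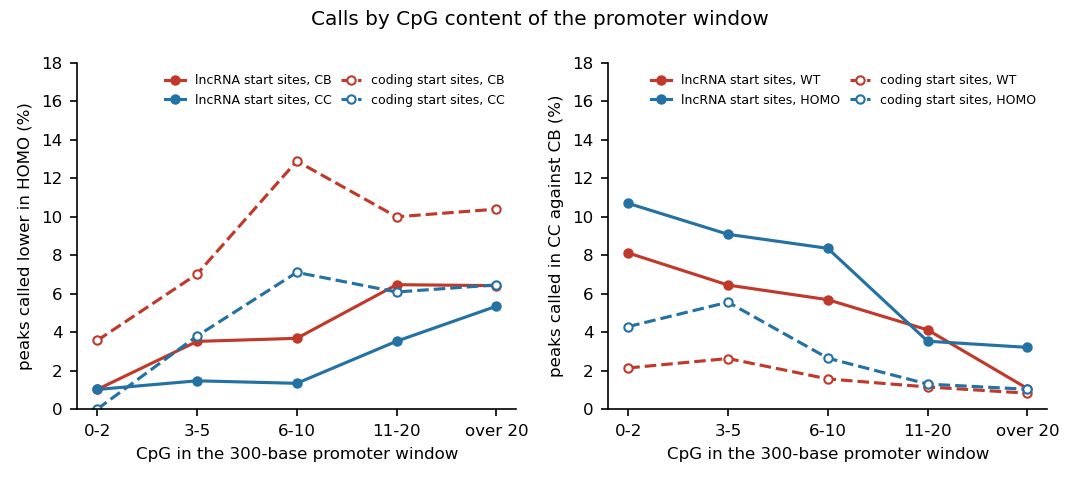
Share of start-site peaks called lower in HOMO (left) and called in either direction in CC against CB (right), by the number of CpG in the 300-base promoter window; filled points and solid lines are lncRNA starts, open points and dashed lines coding starts. At lncRNA starts the share lower in HOMO CB goes from 1.02% to 6.42%, and the share called in CC against CB in WT from 8.12% to 1.07%.

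The next comparison set CC against CB within each genotype. In WT, 63 peaks were higher and 61 lower in CC, 5.46% of the set against 5.43% of all peaks (3.35% higher, 2.08% lower). In HOMO, 104 were higher and 68 lower, 7.58% against 7.22% (4.78% higher, 2.44% lower). Of the calls in WT 49.2% were lower, against 38.3% over all peaks. With library totals in place of TMM factors the WT split was 82 higher and 37 lower, and with factors from distal peaks 56 higher and 75 lower. Over all peaks these settings gave 2989 higher and 918 lower, and 1955 higher and 1945 lower. The same-numbered CB and CC libraries of a genotype deviated together, and in a fit with the replicate block the counts were 482 in WT (21.2%, against 22.1% of all peaks) and 496 in HOMO (21.9%, against 22.2%).

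The lower peak of smallest p (chr9:15670158-15670658) has its midpoint 803 bp from the start of Gm35225 and 39330 bp from an end of Slc36a4. Its CPM was 41.9, 34.1 and 35.5 in WT CB and 18.3, 20 and 15.2 in WT CC. In HOMO it was 55.4, 54.8 and 50.1 in CB and 16.7, 23.1 and 20.7 in CC. The CC libraries were below every CB library in both genotypes. The peak fell by 1.07 ± 0.13 in WT and by 1.38 ± 0.13 in HOMO (edgeR adjusted p = 0.000136 and 3.51e-06), and both calls held without any 1 library. It was also among the higher peaks of HOMO CB (0.52 ± 0.12, adjusted p = 0.0203), a call lost without WT CB 2 (0.0676), WT CB 3 (0.0582), HOMO CB 2 (0.118) or HOMO CB 3 (0.05).

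Named peaks at Gm37120, Gm20485 and Gm42282 were lower in CC in both genotypes. Gm37120 (chr1:132102016-132102516) had 24.2, 21.9 and 20.3 CPM in WT CB and 10.9, 11.3 and 10.9 in WT CC. It fell by 1.00 ± 0.13 in WT and 0.98 ± 0.13 in HOMO (edgeR adjusted p = 0.000226 and 0.000118). The peak near the 5′ end of Gm42282 has its midpoint 6133 bp from an end of Tgfbr1, which encodes a receptor of the cytokine TGF-beta. A peak near each end of the gene was called lower in CC in both genotypes. In WT the one at the 5′ end (chr4:47346839-47347339) fell by 0.94 ± 0.17, from 25.5, 23.6 and 20.5 to 13.9, 11.6 and 11 CPM (edgeR adjusted p = 0.00243). The one at the 3′ end (chr4:47334080-47334580) fell by 0.73 ± 0.15, from 11, 10.1 and 10.8 to 6.60, 5.96 and 6.70 (0.00822). A further peak near the 3′ end (chr4:47333415-47333915) was not called, at -0.17 ± 0.17 in WT and -0.50 ± 0.17 in HOMO (edgeR adjusted p = 0.640 and 0.0796).

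Gm20485, inside Col26a1, had 3 peaks, each called lower in CC of HOMO mice. The strongest (chr5:136863840-136864340) had 10.3, 9.05 and 6.73 CPM in WT CB against 3.26, 3.37 and 2.85 in WT CC, and 10.9, 8.27 and 7.62 against 2.22, 2.61 and 1.37 in HOMO. The falls were 1.46 ± 0.24 in WT and 2.12 ± 0.25 in HOMO (edgeR adjusted p = 0.00148 and 4.56e-05). The peak near its 5′ end fell by 0.92 ± 0.25 in HOMO (adjusted p = 0.0287), a call lost without HOMO CB 2 (0.0795), HOMO CB 3 (0.109), HOMO CC 2 (0.0982) or HOMO CC 3 (0.158). The remaining lower peaks named in WT, at Gm35158, Gm11755, Gm42147 and Gm52040, fell by 1.38, 0.70, 1.21 and 0.97.

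The higher peaks named in WT were at Gm36140, Gm46785, Gm36560, Gm9875, Gm41409, Gm2814, Gm41546 and Gm39713, with log2 fold changes of 0.91 to 1.99. Gm36140, Gm46785 and Gm41409 were of low level in CB. At the start of Gm36140 (chr5:148633865-148634365) the CPM was 1.71, 0.458 and 1.36 in WT CB and 4.89, 5.06 and 5.31 in WT CC. In HOMO it was 2.36, 1.57 and 1.46 in CB and 4.58, 4.43 and 4.07 in CC, so that the populations stood apart in both genotypes. The rise was 1.98 ± 0.29 in WT and 1.37 ± 0.28 in HOMO (edgeR adjusted p = 0.000511 and 0.00429).

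Gm36560 (chr15:102743132-102743632) had 2.59, 2.63 and 2.42 CPM in WT CB and 5.28, 6.32 and 6.5 in WT CC. It rose by 1.26 ± 0.21 in WT and 1.73 ± 0.21 in HOMO (edgeR adjusted p = 0.00179 and 6.49e-05). In HOMO the named higher peaks were Gm36560, Gm41677, Gm41546 and Gm38748, with 1.46 to 2.50. All 16 named calls in WT and all 8 in HOMO held without each library in turn. Without both WT libraries numbered 2, 8 of the 16 WT calls had an adjusted p above 0.05.

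**Figure D5:**
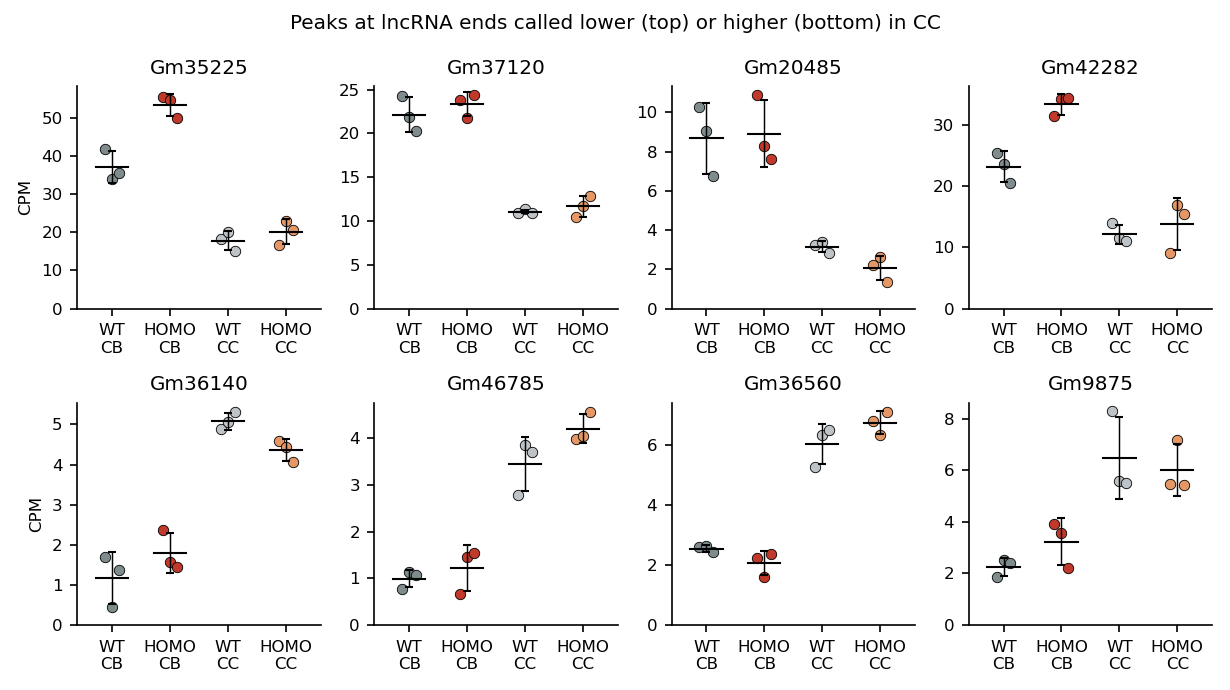
CPM of 8 peaks at lncRNA ends in each library (points, 3 per group), with group means (lines) and SD (bars), for peaks called lower (top) or higher (bottom) in CC against CB in WT. At Gm35225, WT CC lies at 15.2 to 20 below WT CB at 34.1 to 41.9, and at Gm36140 WT CC lies at 4.89 to 5.31 above WT CB at 0.458 to 1.71.

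The calls in both genotypes overlapped: 53 higher peaks were shared (84.1% of the WT and 51% of the HOMO list), as were 35 lower ones (57.4% and 51.5%). Over all peaks these shares were 70.5% and 49.4% for higher and 63.9% and 54.7% for lower calls. The fold changes correlated at r = 0.78 over the 2270 peaks and 0.79 over all peaks, again as a description. By promoter window the shares ran the other way from those for genotype. In WT 8.12% of start peaks with 0 to 2 CpG were called against 1.07% of those with over 20, and in HOMO 10.7% against 3.21%. Within log2 CPM 3 to 5 the WT shares were 4% of 75 and 1.18% of 85 peaks, and the HOMO shares 8% and 2.35%. The course was not steady there, with 7.87% of 127 peaks called in WT at 6 to 10 CpG.

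Each peak was paired with the nearest coding gene that has a peak at a gene end (1388 genes). The neighbour was that gene's gene-end peak of highest average CPM. Of the 82 peaks lower in HOMO CB, 3 had a neighbour called lower and 1 a neighbour called higher, where 9.27% of all coding gene-end peaks were lower, and the neighbours of the 82 had a median log2 fold change of -0.04. None of the 63 peaks higher in CC of WT had a neighbour called in either direction, where 1.4% of coding gene-end peaks were called. Both shares cover all 15681 coding gene-end peaks, whereas a neighbour is the most open peak of its gene. Of 4019 pairs of coding gene-end peaks within 1 kb, 182 of the stronger and 721 of the weaker peaks were lower in HOMO CB. The shares over all such peaks are therefore not a background for the neighbours. Across the 2270 pairs the fold changes of peak and neighbour correlated at r = 0.05 to 0.09 in the 4 comparisons, a description over peaks of the same libraries.

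Known lncRNA genes were read from 4 lists that cover 46 peaks at 28 genes: hosts of small nucleolar RNAs, hosts of microRNAs, regulatory lncRNAs, and lncRNAs of immune cells. Of these, 2 were lower and 0 higher in HOMO CB and likewise in HOMO CC (4.35% in each, against 4.63% and 2.75% of all peaks). In CC against CB 1 was lower in WT (2.17%, against 5.43%), and 2 were higher and 1 lower in HOMO (6.52%, against 7.22%). The median log2 fold change of the 46 was -0.07 in CB and -0.05 in CC.

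Of the 15 peaks at 9 small nucleolar RNA hosts, 1 was called lower in HOMO CC. The hosts carry these RNAs, which guide the modification of ribosomal RNA, in their introns. The start of Dancr (chr5:74092685-74093185) had 55.7, 55.1 and 60.1 CPM in WT CB and 55.4, 49.8 and 55.4 in HOMO CB, which overlap (-0.09 ± 0.09). Snhg16 had a mean of 58.3 ± 2.63 CPM (SD, n = 3) in WT CB and 52.5 ± 0.879 in HOMO CB (-0.15 ± 0.08, edgeR adjusted p = 0.312). The called peak lies 616 bp from the start of Snhg17 (chr2:158360656-158361156), at 9.94, 8.37 and 7.69 CPM in WT CC and 6.36, 4.95 and 3.38 in HOMO CC (-0.89 ± 0.24, edgeR adjusted p = 0.0454). That call was lost without WT CB 2, HOMO CB 2, HOMO CB 3 or any CC library other than HOMO CC 1, with adjusted p-values of 0.0521 to 0.245.

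Kcnq1ot1 is the paternally expressed antisense lncRNA that silences imprinted genes around Kcnq1. The peak over its start (chr7:143296331-143296831) had 45.8, 42.8 and 48.4 CPM in WT CB and 44.5, 48.9 and 46.0 in HOMO CB, and a log2 fold change of 0.02 ± 0.10. The adjoining peak, 482 bp from the start (chr7:143295815-143296315), had 16.7, 13.7 and 19.8 CPM in WT CB and 11.7, 12.1 and 10.9 in HOMO CB. In CC it had 16.0, 14.9 and 16.2 in WT and 11.1, 9.27 and 9.22 in HOMO, so that WT and HOMO did not overlap in either population. It fell by 0.56 ± 0.15 in CB and by 0.70 ± 0.15 in CC (edgeR adjusted p = 0.0340 and 0.0188). Leaving out WT CB 1, WT CB 3, HOMO CB 2 or HOMO CB 3 raised the first to between 0.104 and 0.151, and leaving out WT CC 1, WT CC 3, HOMO CC 2 or HOMO CC 3 raised the second to between 0.0503 and 0.149.

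Malat1 and Neat1 are abundant nuclear lncRNAs, the second the scaffold of paraspeckles. At the most open Malat1 peak (chr19:5803362-5803862) the CPM was 50, 48.9 and 59.1 in WT CB and 63.4, 61.9 and 55.5 in HOMO CB, which overlap (0.18 ± 0.10, edgeR adjusted p = 0.291). A peak 545 bp from an end of Neat1 (chr19:5844685-5845185) was lower in CC of WT, with 30.7, 25.9 and 29.6 CPM in CB and 21.5, 22.0 and 21.7 in CC (-0.41 ± 0.12, edgeR adjusted p = 0.0499). The call was lost without any WT CC library, WT CB 1, WT CB 3, HOMO CB 2, HOMO CB 3 or HOMO CC 2, with adjusted p-values of 0.0563 to 0.180. Pvt1, a neighbour of Myc, had 22.6, 21.3 and 19 CPM in WT CB and 19.5, 20.8 and 20.7 in HOMO CB (-0.04 ± 0.13). Morrbid restrains the pro-apoptotic gene Bcl2l11 in myeloid cells. Its most open peak had 14.4, 13.6 and 12 CPM in WT CB and 9.56, 11.3 and 11.1 in HOMO CB. The groups did not overlap, as at 23.5% of all peaks, and the peak was not called (-0.31 ± 0.17, edgeR adjusted p = 0.313). A further peak, 585 bp from the same start, had 12.8, 14.8 and 10.1 CPM in WT CB. In HOMO CB it had 15.2, 10.6 and 10.6, which overlap (-0.07 ± 0.19, edgeR adjusted p = 0.876).

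The mature microRNAs of 4 hosts are shown, from RefSeq on GRCm38.p6, because the peaks of these hosts are described next. Capitals mark the seed, bases 2 to 8, which selects the target messages.
mmu-miR-15a-5p, chr14:61632075-61632096, minus strand, in Dleu2: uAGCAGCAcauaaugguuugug
mmu-miR-16-5p, chr14:61631936-61631957, minus strand, in Dleu2: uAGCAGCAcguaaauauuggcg
mmu-miR-155-5p, chr16:84714143-84714165, plus strand, in Mir155hg: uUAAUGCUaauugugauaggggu
mmu-miR-22-3p, chr11:75463772-75463793, plus strand, in Mir22hg: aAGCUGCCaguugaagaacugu
mmu-miR-9-5p, chr7:79505279-79505301, plus strand, in Mir9-3hg: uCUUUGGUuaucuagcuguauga

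miR-15a-5p and miR-16-5p share a seed, and the seeds of the others differ. Dleu2 hosts both, which restrain the cell cycle and Bcl2 in B cells. Its start (chr14:61681960-61682460) had 42.1, 42.7 and 50.6 CPM in WT CB and 43.7, 51.4 and 47.2 in HOMO CB (0.07 ± 0.11), and was not called. Mir22hg, the second most open of all peaks at lncRNA ends, had 98.5, 109 and 112 CPM in WT CB and 120, 122 and 109 in HOMO CB (0.14 ± 0.09, edgeR adjusted p = 0.417).

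Mir155hg gives rise to miR-155, which germinal center B cells need. Its peak (chr16:84713039-84713539) had 10.7, 16.2 and 14.2 CPM in HOMO CB and 18.5, 21.1 and 21.6 in HOMO CC, and rose by 0.55 ± 0.15 in CC of HOMO mice (edgeR adjusted p = 0.0258). In WT it had 14.4, 14.1 and 13.6 in CB and 16.6, 15.2 and 20.3 in CC (0.31 ± 0.15, adjusted p = 0.251), and in both genotypes CC lay above CB without overlap. The HOMO call was lost without HOMO CB 1 (0.0895), HOMO CB 3 (0.0862), HOMO CC 2 (0.115) or HOMO CC 3 (0.0949). Mir9-3hg (chr7:79499139-79499639) rose in the same comparison from 1.83, 2.17 and 2.94 to 8.13, 5.18 and 4.36 CPM (1.21 ± 0.26, edgeR adjusted p = 0.00563).

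The peak 956 bp from an end of Mir124a-1hg, host of a neuronal microRNA, (chr14:64586909-64587409) was of low level and was lower in HOMO CB, with 1.71, 1.83 and 2.49 CPM in WT and 0.917, 0.895 and 0.695 in HOMO (-1.33 ± 0.36, edgeR adjusted p = 0.0372). That call was lost without any of WT CB 1, WT CB 2, WT CB 3, HOMO CB 2 or HOMO CB 3, with adjusted p-values of 0.0583 to 0.171.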

How the data were processed

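Omni-ATAC-seq counts were analysed for 12 libraries, 3 in each of 4 groups taken from the labels. The deposited table holds raw read counts per peak made by the authors on mm10, in 68689 peaks of 501 bp. Per the submitters' processing notes, deepTools, BWA, FastQC and R 4.2.1 were used, with no roles stated. The peak caller, the counter, any read shift or duplicate removal, and any pooling of libraries before peaks were called: not given in the sources used here. Gene ends came from a RefSeq table (GRCm38.p6), strand from its promoter windows. The windows used here include none on chromosome 18, and peak sequences were not used.

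Counts were fitted with edgeR 4.0.16 (R 4.3.3; limma 3.58.1 and DESeq2 1.42.0 as alternatives), with TMM factors, 1 mean per group, robust quasi-likelihood dispersions and two-sided tests, over all peaks; filterByExpr removed 0. The common biological coefficient of variation was 0.142 and log2 fold changes had a median standard error of 0.20. Levels in CPM were scaled by TMM; for log2 CPM, 2 counts were added as prior. On simulated data for HOMO against WT in CB with 68689 peaks, the test called 20%, 80%, 96% and 100% of 50 peaks each changed 1.5-, 2-, 3- and 4-fold. The simulated libraries were drawn independently, without the deviations that real libraries of the same number share. These shares may therefore not hold for the real libraries.

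In deviations from group means, the CB and CC library of a genotype with the same number had r of 0.255 to 0.589 (6 pairs; others -0.395 to 0.158, 12 pairs), so the block is printed beside CC against CB.

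The peaks, gene lists, tests and naming rule were chosen with earlier results of these data known. The rule names the 8 called peaks of smallest p per direction (4 for CC against CB in HOMO), 1 per gene, if its average log2 CPM reached 1, the 6 most open peaks and listed genes. Which of 41 further peaks at these genes are printed was chosen after their values were seen. Other software was Python 3.11.15 with pandas 2.3.3, matplotlib 3.10.9 and numpy 2.4.6; R also used the package data.table (version 1.17.8).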

Additional observations from a re-analysis of the deposited data

How the results depend on the processing

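The main counts of called lncRNA-end peaks were 94 (HOMO against WT in CB), 59 (in CC), 124 (WT, CC against CB) and 172 (HOMO, CC against CB). Leaving out 1 library gave 10 to 130, 0 to 113, 41 to 147 and 74 to 186. With a replicate block they were 302, 266, 482 and 496. For the genotype effects the block was the replicate number, shared by WT and HOMO libraries. For CC against CB it was the replicate number within each genotype. WT and HOMO libraries of 1 population with the same number had r of -0.011 to 0.446, and the main fit did not treat them as pairs. With log2 library total as a covariate the counts were 269, 221, 241 and 310. TMM factors from distal peaks gave 159 in CB and 97 in CC for the genotype effect. Without both WT libraries numbered 2 the counts were 52, 9 and 12 for the first 3, and without both HOMO libraries numbered 1 they were 158 and 152 for the genotype effects. limma voom called 206 and 143, and DESeq2 110 in CC. Members within 500 bp of a lncRNA end gave 47, 32, 77 and 100, from 1346 peaks, and those over 10 kb from a coding end gave 39 in CC. Leaving out the peaks near Pbrm1, a choice made after the data were seen, gave 91, 57, 121 and 167. The remaining settings moved these counts by less than 1.5 times, and the difference of effects stayed at 0 calls in every setting run. Of the refits of single named calls 1129 kept the call, 103 lost it and none changed sign. The prior count, library totals and the 500 bp limit moved the mean library median of log2 CPM, 3.01, by less than its spread between libraries. Depth limits the lowest peaks: the median lncRNA-end peak held 53 reads in the shallowest library and 345 in the deepest.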

Other observations

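Where a lncRNA gene end had several peaks within 1 kb of each other, the less open one was more often the lower in HOMO. Such pairs can share a peak, and all use the same libraries, so they are described without a test. Over 365 pairs the weaker peak had the lower log2 fold change in 57.8% in CB and in 60% in CC. Among 63 pairs at starts with over 20 CpG it did so in 76.2% and 66.7%, with CB medians of -0.01 for the stronger and -0.14 for the weaker peak. The pair at Kcnq1ot1 is of this kind in direction, with 0.02 over the start and -0.56 beside it. At coding gene ends the share was 77.3% and 80.2% of 4019 pairs, and in distal peaks 54.7% and 56.6% of 5381. For CC against CB in WT the CpG-rich lncRNA pairs gave 46%.

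By distance, 461 peaks lay over 50 kb from a coding gene end. Of these, 22 were higher and 12 lower in CC of WT (7.38% called, against 5.43% of all peaks). In HOMO 30 were higher and 12 lower (9.11%, against 7.22%). The share of calls that were lower, 35.3% and 28.6%, was near that over all peaks, 38.3% and 33.8%. Of 677 peaks at 3 to 10 kb, 7 were higher and 18 lower in WT (3.69% called, 72% of calls lower). In HOMO 21 were higher and 22 lower (6.35% called, 51.2% of calls lower). For HOMO against WT in CC, 7 were higher and 3 lower in the far group (2.17% called). In the near group 3 were higher and 17 lower (2.95% called). Over all peaks 2.75% were called and 79% of calls were lower. All these calls of the far and near groups were lost without HOMO CC 2. In CB the same groups had 3 higher and 14 lower (3.69% called), and 3 higher and 24 lower (3.99%), against 4.63% of all peaks called. These shares were not tested against each other. The level was lower in the far group (median log2 CPM 2.81 against 3.19), and its part in these shares was not tested.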
